A study of Bos taurus with 8 samples.

Results

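The insulin-like growth factor (IGF) ligands, their receptors and the IGF binding proteins were examined in RNA-seq counts of bovine preadipocyte clones. The members were a fixed list of 10 genes taken by symbol, namely the ligands *IGF1* and *IGF2*, the receptors *IGF1R* and *IGF2R*, and the binding proteins *IGFBP2* to *IGFBP7*. Of the 18871 named genes in the table, 9 were members; the table has no row for *IGF1*, which was not analysed here. All 9 passed the filter of at least 20 counts in total over the clones.

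The clones numbered 8, each grown from a single cell of the stromal vascular fraction of intramuscular fat (IMF1 to IMF4) or of subcutaneous fat (SF1 to SF4) of adult male Angus-cross steers. The labels speak of 5 steers, and the methods text of a different number. These 8 had been picked from a larger number by criteria that included growth, and the values describe them and not a random draw of cells from a depot. According to the paper, RNA was taken from growing, near-confluent clones that had not been induced, whereas the design text deposited with the data places adipogenic induction before sequencing. The paper describes fractions isolated separately from each tissue sample and each clone as taken from such a sample, but nothing in the labels says which clones came from the same animal, and p-values therefore measure only the spread between these clones. No treatment or genotype differed between the groups in the labels, so the depot of origin was the only labelled difference. Named genes received 19654917, 29308882, 20154941 and 20693899 counts in IMF1 to IMF4 and 20482958, 19979899, 24868233 and 21034462 counts in SF1 to SF4.

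IGF1 and IGF2 are secreted peptides that bind IGF1R, a receptor tyrosine kinase that signals through insulin receptor substrates, PI3-kinase and AKT to promote growth, survival and differentiation. IGF2R has no kinase domain and carries IGF2 to lysosomes for breakdown, while the binding proteins hold the ligands outside the cell and release them when they are cleaved. In fat and muscle, the axis is known for acting on the proliferation of precursor cells and on both adipogenic and myogenic differentiation.

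The labelled cell type was examined with marker lists before the IGF genes. Stromal markers were present in every clone; their summed level was 22137, 21715, 22678 and 21715 CPM (the count relative to a normalized library size) in IMF1 to IMF4 and 39342, 38705, 40098 and 35780 CPM in SF1 to SF4. *COL1A1* was the most abundant of them per length, and 2 of the 8 (*THY1* and *COL1A1*) were lower in IMF past both thresholds, which were an edgeR adjusted p under 0.05 and a log2 fold change of 1 or more in size. The direction of the sum was that of *COL1A1*, since the other 7 markers summed to 9884, 9733, 9764 and 9379 CPM in IMF1 to IMF4 and to 8299, 8995, 9242 and 7029.6 CPM in SF1 to SF4, which was the other way. *PDGFRA*, a receptor of mesenchymal precursors named after its values were seen, was above all SF clones in every IMF clone but under the fold threshold (log2 fold change 0.49, edgeR adjusted p = 0.0214). The IMF clones also carried markers of other cell types. All 10 myogenic markers were higher in IMF past both thresholds, with summed levels of 928, 894, 908 and 797 CPM in IMF1 to IMF4 against 22.6, 1.15, 10.2 and 32.1 CPM in SF1 to SF4. Per length, *MYOD1* was the most abundant myogenic marker in IMF. *MYOD1*, *MYOG* and *CHRNA1* had 0 counts in all 4 SF clones, and *CDH15* and *ACTA1* had 3 or fewer in each. Of 12 endothelial markers, 10 were higher in IMF, the exceptions being *FLT1* and *CLDN5*. The endothelial sums were 249.96, 259, 259 and 295 CPM in IMF1 to IMF4 and 82.2, 50.9, 44.9 and 64.3 CPM in SF1 to SF4. *CLDN5* was the most abundant of these markers per length. The counts of *CLDN5* were even in all 8 clones, so its level is uncertain. Without it the endothelial sums were 225, 223, 225 and 242 CPM in IMF1 to IMF4 and 46.8, 19.8, 21.3 and 29.4 CPM in SF1 to SF4. *KDR*, *SELE* and *CD93* had 0 counts in all SF clones, and *TIE1* had 1 count in SF2 alone.

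Smooth muscle and pericyte markers went mainly the other way. Of the 5 tested, 4 (*ACTA2*, *TAGLN*, *CNN1* and *CSPG4*) were lower and 1 (*MYH11*) was higher in IMF. Their sums were 2419, 2446, 2293 and 2177 CPM in IMF1 to IMF4 and 11035, 4010, 3240 and 7196 CPM in SF1 to SF4. For *ACTA2* the groups overlapped, since SF3 at 1079 CPM lay within the IMF range of 988 to 1120 CPM. *TAGLN* was the most abundant of these 5 markers per length. Mature adipocyte markers were low, with sums of 17.4, 17.3, 15.8 and 15.6 CPM in IMF1 to IMF4 and 8.98, 5.11, 9.41 and 7.27 CPM in SF1 to SF4. Of the 4 tested, *FABP4*, per length the most abundant in IMF but not in SF, was higher in IMF, and *ADIPOQ* and *LEP* were not analysed here. Without *FABP4* the sums of the other 3 overlapped, at 6.43, 5.79, 7.89 and 7.42 CPM in IMF1 to IMF4 and 8.98, 5.11, 9.09 and 6.89 CPM in SF1 to SF4. *PLIN1*, which coats lipid droplets and was named after its values were seen, had 2.69, 2.71, 3.04 and 2.90 CPM in IMF1 to IMF4 and 3.90, 3.50, 3.65 and 3.42 CPM in SF1 to SF4 and did not pass (edgeR adjusted p = 0.119). Leukocyte markers summed to between 24.4 and 46.02 CPM in IMF and between 53.7 and 93.1 CPM in SF. *TYROBP* was the most abundant of them per length. Of 5 tested, *CD14* was higher and *CD3E* lower in IMF. The leukocyte sums are uncertain, since *PTPRC*, at 1.90 CPM in IMF2, had there only 0.155 of the mean of the other IMF clones. Leaving out a clone ended some marker calls: in 5 of 8 such fits for *DES* (edgeR adjusted p up to 0.0770), in 6 for *THY1* (up to 0.0820), in 6 for *ACTA2* (up to 0.0814), in 7 for *MYH11* (up to 0.0766), in 6 for *CD3E* (up to 0.103) and, through the fold alone, in 1 for *TAGLN* (log2 fold change -0.81 without SF1). Calls were gained for *DCN*, *PTPRC* and *CD79A* in some of these fits. The sums of these lists did not overlap between the groups, and without the most abundant gene of each list this held in the same direction for the myogenic, endothelial, smooth muscle and leukocyte lists but not for the stromal and adipocyte lists. Their part in the differences of the IGF genes described next was not tested. In RNA from whole cultures, fewer cells of a type and less RNA per cell cannot be told apart.

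Of the 9 IGF genes, 2 passed both thresholds, against 8.82% of the 18339 genes tested. The ligand *IGF2* was higher in IMF (1 member, against 4.78% of all genes tested) and the receptor *IGF2R* was lower (1 member, against 4.04%). With the adjusted p alone, *IGF1R* joined them, which made 3 of 9 against 25.8% of all genes, and the same 3 genes were those whose groups of clones did not overlap, against 32.1% of all genes. The remaining 6, all of them binding proteins, overlapped between the groups. The median log2 fold change of the 9 was -0.27, beside -0.03 over all genes tested.

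**Figure D1:**
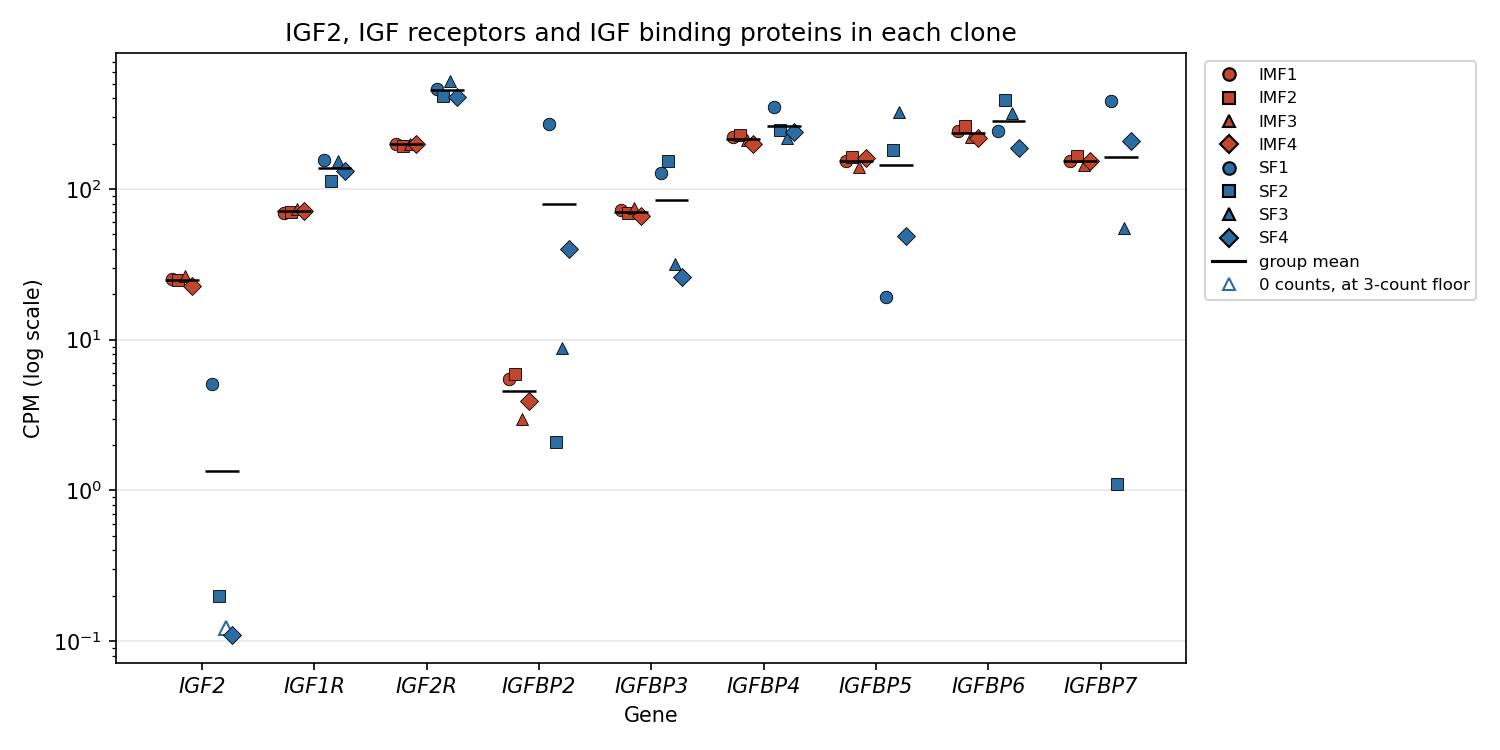
Level of each gene in CPM on a log axis, with the gene on the x axis, 1 point per clone (IMF in red, SF in blue) and the group mean as a bar; an open symbol marks 0 counts, drawn at 3 counts. Among the SF clones *IGFBP2* spans 2.10 to 268 CPM and *IGFBP7* 1.10 to 386 CPM, against 2.99 to 5.92 CPM and 145 to 166 CPM among the IMF clones.

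*IGF2*, the fetal growth factor of the family, had 529, 760, 587 and 480 counts in IMF1 to IMF4, or 25.4, 24.9, 26.6 and 22.8 CPM. In SF1 to SF4 it had 99, 4, 0 and 2 counts, or 5.08, 0.200, 0 and 0.110 CPM. All IMF clones lay above all SF clones, and among the latter only SF1 was clearly above the limit of detection; the 0 in SF3 allows up to 0.122 CPM at 3 counts, a limit that covers counting error only. The group means were 24.9 ± 1.57 CPM in IMF against 1.35 ± 2.49 CPM in SF (SD, n = 4 each), and the log2 fold change of IMF over SF was 4.23 (standard error 1.08, 95% interval 1.78 to 6.69, edgeR adjusted p = 0.0213). This size depended on SF1, since without that clone the log2 fold change was 7.93 (edgeR adjusted p = 2.07e-05), and on the method, since with all clones it was 6.86 with limma-voom and 5.44 with the clone number as a block. Without IMF3 it was 4.15 and no longer passed (edgeR adjusted p = 0.0562, the highest of all settings tried, the lowest being 2.07e-05). The gene lies on chromosome 29 from 49395153 to 49422472 in ARS-UCD2.0, and it contains the microRNA gene *MIR483*, which was not analysed here.

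*H19*, the imprinted noncoding RNA gene whose imprinting control region also governs *IGF2*, lies 88525 bases beyond it at 49510998 to 49513370. It had 67370, 96608, 70906 and 60800 counts in IMF1 to IMF4 and 202, 1, 7 and 14 counts in SF1 to SF4. As with *IGF2*, SF1 was the highest of the SF clones and every IMF clone lay far above it. Its log2 fold change was 10.10 (standard error 1.46, edgeR adjusted p = 0.00162), from 3125 ± 157 CPM in IMF to 2.87 ± 5.01 CPM in SF (SD, n = 4 each). The size of this difference too depended on SF1, since without that clone the fold was 8640 and not 1096 (log2 fold change 13.08, edgeR adjusted p = 1.73e-05), and it was also larger with limma-voom (log2 fold change 12.29) and with the clone number as a block (11.63). *H19* passed under every alternative tried. Per length, in TPM (counts divided by gene length and scaled to the same total in every clone), the level of *H19* was 356, 356, 338 and 354 times that of *IGF2* in IMF1 to IMF4 and 5.71 times in SF1. In the other SF clones *IGF2* was too low for such a ratio to be read. The counts carry no allele information, so imprinting itself was not measured. *INS*, which ends 616 bases before *IGF2*, was not analysed here.

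The receptors went the opposite way to the ligand. *IGF2R*, the scavenger receptor for IGF2, had 4164, 5892, 4349 and 4191 counts in IMF1 to IMF4, or 199.8, 193, 197 and 199 CPM. It had 8924, 8208, 12866 and 7411 counts in SF1 to SF4, or 458, 411, 522 and 408 CPM. The groups did not overlap, and the IMF clones differed from each other by at most 1.04 times. IMF over SF gave a log2 fold change of -1.19 (standard error 0.10, 95% interval -1.42 to -0.96, edgeR adjusted p = 0.000101), or 2.28-fold lower in IMF, from 450 ± 53.3 CPM in SF to 197 ± 3.27 CPM in IMF (SD, n = 4 each). It passed under every alternative tried, with log2 fold changes from -1.23 to -1.05. The gene lies on chromosome 9 from 96197493 to 96300019. The RefSeq list places the noncoding *AIRN* gene within it, which was not analysed here.

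*IGF1R*, the signalling receptor, had 1443, 2148, 1614 and 1508 counts in IMF1 to IMF4, or 69.2, 70.3, 73.2 and 71.8 CPM. In SF1 to SF4 it had 3017, 2268, 3793 and 2388 counts, or 155, 114, 154 and 132 CPM. Every SF clone lay above every IMF clone. The log2 fold change was -0.96 (standard error 0.11, 95% interval -1.21 to -0.72, edgeR adjusted p = 0.000455), or 1.95-fold lower in IMF, just short of the fold threshold. It crossed that threshold without IMF3 (2.01-fold lower) and without SF2 (2.06-fold lower). It lay further from the threshold with total counts alone (1.76-fold lower) and without SF1 (1.87-fold lower). The gene spans 7780293 to 8087168 on chromosome 21, where 3 listed genes overlap it, among them *PGPEP1L* with at most 12 counts in a clone. Per length, the level of *IGF2R* was 1.72, 1.64, 1.61 and 1.66 times that of *IGF1R* in IMF1 to IMF4 and 1.77, 2.16, 2.03 and 1.85 times in SF1 to SF4.

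Several of the binding protein genes spread widely among the SF clones. *IGFBP2*, whose protein also carries an integrin-binding motif, had 114, 181, 66 and 82 counts in IMF1 to IMF4 (5.47, 5.92, 2.99 and 3.90 CPM). In SF1 to SF4 it had 5229, 42, 216 and 724 counts (268, 2.10, 8.77 and 39.9 CPM). SF2 lay below every IMF clone while the other SF clones lay above, so the groups overlapped, and SF1 stood far above the rest. The log2 fold change was -4.12 (standard error 1.32, 95% interval without adjustment -7.14 to -1.10), but the edgeR adjusted p was 0.0513 and the gene was not called. Whether it was called turned on the setting: the adjusted p was 0.00341 with DESeq2 and 0.437 with limma-voom, the lowest and the highest of all settings tried. The gene passed without SF2 (edgeR adjusted p = 0.0197) or SF3 (0.0393), and without SF1 the log2 fold change was -1.88 (edgeR adjusted p = 0.138).

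*IGFBP7*, a relative of the family that binds IGFs weakly, had 3203, 5082, 3188 and 3205 counts in IMF1 to IMF4 (154, 166, 145 and 153 CPM). In SF1 to SF4 it had 7512, 22, 1356 and 3782 counts (386, 1.10, 55.03 and 208 CPM). The SF clones lay on either side of the IMF clones and differed by 350.1 times from lowest to highest, while the group means were close, at 154 ± 8.96 CPM in IMF against 163 ± 173 CPM in SF (SD, n = 4 each). The log2 fold change of -0.08 had a 95% interval from -2.53 to 2.38 (edgeR adjusted p = 0.970), wide enough to hold large differences of either sign, and its sign changed with total counts alone, with limma-voom, and without SF1 or SF4. *POLR2B* overlaps the end of *IGFBP7* on chromosome 6 (72361714 to 72405597 against 72405517 to 72485427), and reads in the shared stretch cannot be assigned with certainty. *POLR2B* itself had 923, 1295, 1613 and 1117 counts in SF1 to SF4.

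*IGFBP5*, a matrix-associated binding protein known in muscle and bone, had 3171, 4989, 3073 and 3352 counts in IMF1 to IMF4 (152, 163, 139 and 159.5 CPM). In SF1 to SF4 it had 375, 3632, 8003 and 880 counts (19.2, 182, 325 and 48.5 CPM). SF2 and SF3 lay above all IMF clones and SF1 and SF4 below. Its log2 fold change was 0.10 (standard error 0.71, edgeR adjusted p = 0.941), and its sign changed without SF1 (-0.27) or without SF4 (-0.19). *IGFBP2* and *IGFBP5* are neighbours on chromosome 2, at 104619962 to 104648632 and 104656175 to 104679857, with 7542 bases between them. Among the SF clones they ran in different orders: *IGFBP2* and also *IGFBP7* fell in the order SF1, SF4, SF3, SF2, and *IGFBP5* in the order SF3, SF2, SF4, SF1. Of the 5 smooth muscle and pericyte markers, *ACTA2*, *TAGLN*, *CNN1* and *MYH11* were also highest in SF1 (6491, 3574, 839 and 8.73 CPM), whereas *CSPG4* was lowest there (122 CPM), and their part in the spread of the binding proteins was not tested.

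*IGFBP3*, the main carrier of IGFs in serum, had 1510, 2129, 1638 and 1389 counts in IMF1 to IMF4 (72.4, 69.6, 74.3 and 66.1 CPM). In SF1 to SF4 it had 2496, 3060, 783 and 471 counts (128, 153, 31.8 and 26.0 CPM). Here SF1 and SF2 lay above and SF3 and SF4 below all IMF clones. Its log2 fold change was -0.26 (standard error 0.54, edgeR adjusted p = 0.765), and its sign changed with limma-voom and without SF1 or SF2. The gene lies on chromosome 4 from 76116379 to 76124833, next to *IGFBP1*, which was not analysed here.

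Among the SF clones, *IGFBP4* and *IGFBP6* varied least of the binding proteins. *IGFBP4*, an inhibitor of IGF action that the protease PAPPA cleaves, had from 198 to 227 CPM in the IMF clones and 349, 247, 218 and 237 CPM in SF1 to SF4. Only SF3 fell within the IMF range, and the log2 fold change of -0.29 did not pass (standard error 0.15, edgeR adjusted p = 0.191). *IGFBP6*, which prefers IGF2 over IGF1, had from 217 to 261 CPM in the IMF clones and 242, 388, 319 and 186 CPM in SF1 to SF4. Its groups overlapped (log2 fold change -0.27, standard error 0.21, edgeR adjusted p = 0.392). They lie on chromosome 19 (40672669 to 40684257) and chromosome 5 (26878972 to 26882822).

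**Figure D2:**
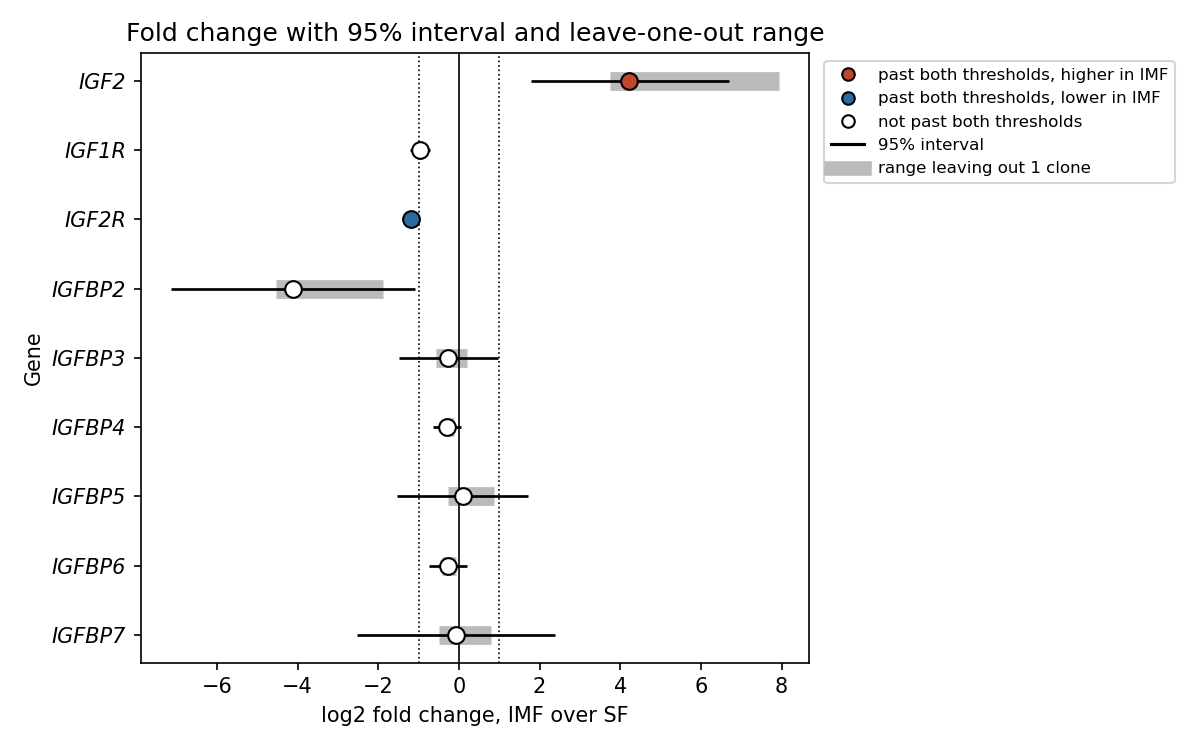
Log2 fold change of IMF over SF on the x axis for each gene on the y axis, with the unadjusted 95% interval (black line), the range when 1 clone was left out (grey band) and the fold threshold (dotted lines); filled points passed both thresholds. *IGF2* lies right of the threshold at 4.23 and *IGF2R* left of it at -1.19, and the intervals of *IGFBP3* to *IGFBP7* reach to both sides of 0.

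Levels of different genes were compared per length, as TPM. In IMF the mean levels were 316 ± 30.02 TPM for *IGFBP6*, 228 ± 11.7 for *IGFBP7*, 172 ± 16.9 for *IGFBP4*, 48.5 ± 5.78 for *IGFBP3* and 40.3 ± 1.33 for *IGFBP5* (SD, n = 4). Below these came *IGF2R* at 36.3 ± 2.88 TPM, *IGF1R* at 21.9 ± 1.75, *IGFBP2* at 7.95 ± 2.28 and *IGF2* at 7.28 ± 0.933. Each neighbour in this order was separate from the next in all 4 IMF clones, except *IGFBP2* and *IGF2*, whose ranges overlapped. In SF the order of the means was *IGFBP6* (385 ± 150.1 TPM), *IGFBP7* (227 ± 245), *IGFBP4* (207 ± 46.7), *IGFBP2* (134 ± 215), *IGF2R* (82.03 ± 13.8), *IGFBP3* (59.03 ± 47.7), *IGF1R* (42.1 ± 6.61), *IGFBP5* (39.0 ± 38.9) and *IGF2* (0.381 ± 0.703). No neighbours in this order were separate except *IGFBP5* and *IGF2*. The place of *IGFBP2* rested on SF1, at 455 TPM against 3.96, 15.8 and 60.8 TPM in SF2 to SF4. It lay above *IGF2R* in only 1 of the 4 SF clones.

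The 6 binding protein genes together reached 873, 827, 828 and 722 TPM in IMF1 to IMF4 and 1685, 945, 834 and 739.7 TPM in SF1 to SF4, so the groups overlapped in the total. The make-up was alike in the IMF clones, where *IGFBP6* took 38.9 ± 0.875% of the summed TPM, *IGFBP7* 28.1 ± 0.855%, *IGFBP4* 21.1 ± 0.587%, *IGFBP3* 5.97 ± 0.479%, *IGFBP5* 4.97 ± 0.324% and *IGFBP2* 0.973 ± 0.237% (SD, n = 4). The ranking of the 6 was the same in every IMF clone and different in each SF clone. In SF1 *IGFBP7* led with 32.9% of the summed TPM, followed by *IGFBP2* with 27.0%. *IGFBP6* led in SF2 with 59.5% and in SF3 with 53.2%, where *IGFBP7* had 0.186% and 10.1%. In SF4 *IGFBP7* led again with 36.4%, ahead of *IGFBP6* with 29.5%. Thus *IGFBP7* was the most abundant binding protein transcript in SF1 and SF4 and the least abundant in SF2.

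**Figure D3:**
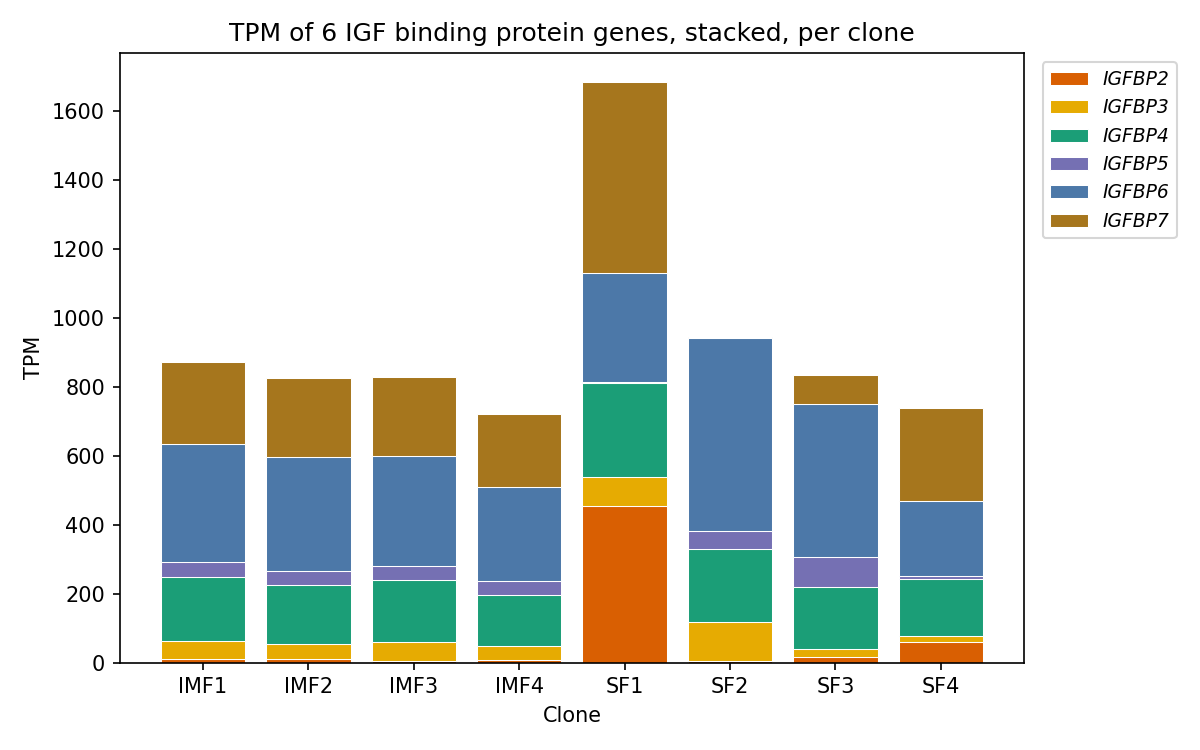
TPM of *IGFBP2* to *IGFBP7* on the y axis, stacked as bars, for each clone on the x axis. The IMF bars share their proportions, while SF1 is the tallest at 1685 TPM with a large *IGFBP2* block and SF2 has almost no *IGFBP7* block.

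The spread within each group was set against that of other genes. The biological coefficient of variation had a median of 4.09% in IMF and of 12.2% in SF over the 10948 genes that averaged 100 or more counts in each group, and the source of this difference was not tested. The SD of log2 CPM was larger in SF than in IMF for 76.4% of the 9339 genes with a mean of at least 10 CPM over all clones, with medians of 0.19 and 0.0885. In SF the SD of *IGFBP7* was 3.74, above that of 99.96% of the 9339 genes. The SDs of *IGFBP5* (1.84) and *IGFBP3* (1.33) exceeded those of 99.5% and 98.9% of these genes. Those of *IGFBP6* (0.46), *IGFBP4* (0.30), *IGF1R* (0.21) and *IGF2R* (0.17) were at 87.8%, 73.8%, 57.8% and 43.3%. *IGFBP2* had an SD of 2.98 in SF but was not ranked, since it reached a mean of 10 CPM over all clones only through SF. In IMF the SDs of *IGF2R* (0.02) and *IGF1R* (0.03) exceeded those of only 2.46% and 7.04% of the genes. Those of *IGFBP3* to *IGFBP7* were at 36.9% (*IGFBP3*) to 71.6% (*IGFBP6*). The low counts of *IGF2* in SF and of *IGFBP2* in IMF add counting error to their spread, so these SDs were not ranked among well-expressed genes.

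Genes with the most similar pattern were sought among 8722 named genes by Pearson's r of log2 CPM over the 8 clones. The clones share the division into groups, and r describes the shape of a pattern and not its size. The best of so many genes over 8 clones can reach a high r by chance, which was not tested. For *IGF2* the genes with the highest r were *RCN3* (0.99), *CRELD2* (0.99) and *CTU2* (0.99). For *IGF2R* they were *FARP1* (1.00), *TBX3* (0.99) and *GLIS2* (0.99). *FARP1* had 1226, 1831, 1295 and 1280 counts in IMF1 to IMF4 and 3022, 2854, 4382 and 2523 in SF1 to SF4. For *IGFBP2* they were *TPM2* (1.00), *ZYX* (0.98) and *AMIGO2* (0.98); *TPM2*, which encodes a tropomyosin of the contractile apparatus, had 39934, 9885, 18141 and 23319 counts in SF1 to SF4. For *IGFBP5* they were *OMD* (0.99), *CKAP2* (0.99) and *CA13* (0.99). For *IGFBP7* they included *POU2F1* (0.96) and *COL4A2* (0.95). *COL4A2*, which encodes a basement membrane collagen, had 52707, 277, 2657 and 9194 counts in SF1 to SF4, with its lowest value in SF2, as for *IGFBP7*.

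Other genes of the axis were taken from 5 lists. Of their 65 genes, 56 had a row and 55 were tested, of which 13 passed both thresholds, 8 higher and 5 lower in IMF, or 23.6% against 8.82% of all genes tested. Their groups did not overlap for 23 of the 55, against 32.1% of all genes tested, and their median log2 fold change was -0.08 beside -0.03. The myogenic and endothelial sums given above differed between the groups here too, and their part in these calls was not tested.

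Among 4 ligand and receptor relatives tested of 8 listed, *H19* was the only gene past both thresholds (median log2 fold change 0.38). Per length it had the highest mean of them in IMF, at 2551 TPM, and the lowest mean in SF, at 2.25 TPM. That SF mean came mainly from SF1, where *H19* had 10.4 CPM, against 0.771 CPM or less in the other SF clones. *GHR*, the growth hormone receptor, had 8.92, 9.65, 10.3 and 9.95 CPM in IMF1 to IMF4 and 7.13, 5.86, 3.17 and 4.30 CPM in SF1 to SF4. Its groups were separate, and with a log2 fold change of 0.93 (edgeR adjusted p = 0.0210) it stayed under the fold threshold, which it crossed without SF1 (1.13), with total counts alone (1.07) and with limma-voom (1.02). It was named after its values were seen. *INSR* did not pass (log2 fold change -0.18, edgeR adjusted p = 0.276).

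Of 10 genes tested that cleave binding proteins, inhibit that cleavage or take the proteins up, 2 were higher and 2 lower in IMF (median log2 fold change -0.02). *PAPPA*, the metalloprotease that cleaves IGFBP4, had 10.2, 9.22, 10.4 and 9.33 CPM in IMF1 to IMF4 and 4.72, 3.95, 5.76 and 4.57 CPM in SF1 to SF4. The groups were separate, and its log2 fold change of 1.04 (standard error 0.14, edgeR adjusted p = 0.00104) was close to the threshold, below which it fell without IMF3 (0.98) or without SF2 (0.96). *ADAMTS1*, a protease of proteoglycans, was higher in IMF, at 57.5 ± 3.86 CPM against 13.2 ± 2.23 CPM in SF (SD, n = 4 each; log2 fold change 2.12, edgeR adjusted p = 1.44e-05). *HTRA1*, a serine protease that cleaves IGFBP5, was lower in IMF, at 281 ± 16.0 CPM against 651 ± 127 CPM in SF (log2 fold change -1.21, edgeR adjusted p = 0.000625). *LRP1*, an endocytic receptor that also binds IGFBP3, was lower as well, at 2241 ± 119 CPM against 5295 ± 653 CPM (log2 fold change -1.24, edgeR adjusted p = 0.000281). *MMP2*, the most abundant of the list per length, had 2736 ± 91.0 CPM in IMF against 2726 ± 800.2 CPM in SF (edgeR adjusted p = 0.989).

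Of 11 genes whose proteins share the IGFBP domain, 3 were lower in IMF and the other 8 did not pass (median log2 fold change -0.51). *CTGF*, the older symbol of the matricellular gene *CCN2* and the most abundant of the list per length, had 751, 785, 771 and 775 CPM in IMF1 to IMF4 and 2980, 1361, 1675 and 2231 CPM in SF1 to SF4. All SF clones lay above all IMF clones (log2 fold change -1.42, standard error 0.23, edgeR adjusted p = 0.00271). *HTRA3*, a serine protease related to HTRA1, had 196 ± 9.95 CPM in IMF against 714 ± 203 CPM in SF (log2 fold change -1.86, edgeR adjusted p = 0.000411), and *CRIM1*, a transmembrane BMP antagonist, had 282 ± 2.96 and 745 ± 343 CPM (log2 fold change -1.40, edgeR adjusted p = 0.00692). The table also has a row named *CCN2*, with 902 counts in all against 239942 for *CTGF*, and rows for both *CCN5* (91) and its older symbol *WISP2* (16074); the row with more counts was used. All SF clones lay above all IMF clones for *WISP2* too, but it did not pass (log2 fold change -1.45, edgeR adjusted p = 0.0568); it passed with DESeq2 and without SF3 or SF4, where its log2 fold change reached -1.73. It was named after its values were seen. With the rows of the newer symbols, 12 and not 13 genes of the 5 lists passed. Rows such as *CCN3*, *CCN4* and *CCN6* had in IMF2 only 0.162, 0.135 and 0.186 of the mean CPM of the other IMF clones, and are uncertain. Of 15042 rows with at least 200 counts in total, 1257 (8.36%) had less than 0.5 of that mean in IMF2; none of the 9 IGF genes was among them, with ratios from 0.969 to 1.44. Of the same 15042 rows, 396 (2.63%) had even counts in all 8 clones, a share that was 13.8% among the rows low in IMF2 and 1.62% among the others. Among the genes of all lists, the rows of *CCN3*, *PLAG1* and *CLDN5*, named after their values were seen, had only even counts, and the last was not low in IMF2 (0.982 of the mean of the other IMF clones). No IGF gene had more than 6 even counts. The origin of such rows was not tested, and their values are uncertain.

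Of 8 genes tested that bind *IGF2* mRNA or regulate transcription in the axis, 2 were higher in IMF and the other 6 did not pass (median log2 fold change 0.10). *HMGA1* and *HMGA2*, chromatin proteins of growing and fetal cells, had 12.0 ± 0.639 and 2.90 ± 0.483 CPM in IMF against 2.29 ± 0.624 and 0.546 ± 0.225 CPM in SF (SD, n = 4 each). Their log2 fold changes were 2.39 and 2.40 (edgeR adjusted p = 0.000125 and 0.00128), with separate groups for both. *IGF2BP1*, which encodes a protein that binds *IGF2* mRNA, had 4 or fewer counts in every clone and was not tested. Its relative *IGF2BP3*, named after its values were seen, had 2.35, 1.67, 1.31 and 2.00 CPM in IMF1 to IMF4 and 0.154, 6.46, 8.73 and 14.6 CPM in SF1 to SF4. SF1 lay below all IMF clones and the other SF clones above, and the gene did not pass (log2 fold change -2.03, standard error 0.87) except without SF1 (log2 fold change -2.44, edgeR adjusted p = 0.00141, the lowest of all settings, the highest being 0.623). *STAT5A* was the most abundant of the list per length, at 25.5 ± 2.07 CPM in IMF against 20.9 ± 3.36 CPM in SF (edgeR adjusted p = 0.128).

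Of 22 genes tested that relay the signal of the receptor, 3 were higher in IMF and the other 19 did not pass (median log2 fold change -0.06). *SOCS3*, a feedback inhibitor of cytokine and insulin signalling, had 14.1, 14.3, 15.4 and 14.2 CPM in IMF1 to IMF4 and 3.90, 3.50, 4.50 and 3.80 CPM in SF1 to SF4. The groups were far apart relative to their spread (log2 fold change 1.88, standard error 0.11, edgeR adjusted p = 1.39e-05). The PI3-kinase subunits *PIK3R3* and *PIK3CB* were also higher, 4.33-fold and 2.83-fold (edgeR adjusted p = 0.000168 and 0.00396), at 12.0 ± 0.925 and 6.91 ± 0.653 CPM in IMF. *AKT1*, the most abundant of the list per length, had 218 ± 8.04 CPM in IMF against 209 ± 9.02 CPM in SF and did not pass (log2 fold change 0.06, edgeR adjusted p = 0.557). *GRB10*, an imprinted adaptor that dampens signalling from IGF1R, was separate between the groups but under the fold threshold (log2 fold change 0.93, edgeR adjusted p = 0.00222); it crossed that threshold without SF1 (1.09) and with total counts alone (1.08), and was named after its values were seen.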

How the data were processed

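Total RNA of 8 clones was sequenced in paired-end reads. After trimming and alignment to ARS-UCD2.0, the authors counted reads per gene and deposited raw counts for each gene and clone without normalization, together with a gene length in bases. The submitters' processing notes name Trimmomatic 0.39, STAR 2.7.11a, featureCounts 2.0.2 and DESeq2 1.42.0, whereas the paper names HISAT2 as the aligner. The labels describe a strand-marking dUTP protocol and the paper a non-stranded one, so overlapping genes may share reads. The table's other columns hold group means and the authors' own DESeq2 comparison (mean, fold change, error, statistic, p-values and category) and were not used.

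One row without a gene name (0.0148% to 0.0209% of counts) was left out. In R 4.3.3, edgeR 4.0.16 (TMM, two-sided quasi-likelihood test) was fitted to the 18339 genes with at least 20 counts in total, with Benjamini-Hochberg adjustment over all of them; 1618 had an adjusted p under 0.05 with a log2 fold change of 1 or more in size. The model pools the spread of both groups. Intervals at 95% are not adjusted. CPM used TMM library sizes, and 3 counts, the floor, equalled 0.0981 to 0.165 CPM. TPM used the deposited lengths. The smallest p of an exact permutation of 4 against 4 clones would be 0.0286. The fit was tested on simulated data. Coordinates came from the RefSeq list of the same assembly, in which 14201 of 18871 gene IDs, and all 9 IGF genes, were found by symbol.

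The members and lists were chosen with earlier results of these data known. Named were all members, each other-list gene past both thresholds (at most 15), the most abundant gene of each list by TPM, markers at 3 or fewer counts in every clone of a group, and the 3 genes with the highest r for at most 5 members, a choice of members made after values were seen. A gene chosen by this rule is not reported here. The lists were *IGF* axis relatives, IGFBP proteolysis, IGFBP-domain relatives, regulators, signal relay, and stromal, myogenic, endothelial, adipocyte, smooth muscle and leukocyte markers. Alternatives were DESeq2 1.42.0, limma-voom (limma 3.58.1), RLE size factors, total counts alone, no filter, a prior count of 2, a stricter filter (10 counts or more in 4 clones), the clone number as a block, leaving out each clone and CPM for TPM. The rule for genes with rows under 2 symbols, the list sums without their most abundant gene and the count of rows with only even counts were chosen after the data were seen. Tables and figures were made with Python 3.11.15.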

Additional observations from a re-analysis of the deposited data

Results flagged for a closer look

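For 22 genes, 44 groups of 4 clones were examined in CPM, not on a log scale, for a clone far from the others. In these groups 3 values stood apart, all in SF1. Chance alone gives about 1 in 20 groups, and the number found was close to that share. *IGF2* was at 5.08 CPM in SF1, with the other SF clones between 0 and 0.200 CPM. *H19* was at 10.4 CPM in SF1, with the others at or below 0.771 CPM. *IGFBP2* was at 268 CPM in SF1, with the others at or below 39.9 CPM. *IGF2* and *H19* are neighbours, and whether their values are independent of each other was not examined. The cause was not tested.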

How the results depend on the processing

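The spread was unequal between the groups, no label says which of the 8 clones share an animal, and counts under the floor limit *IGF2* in SF. The members past both thresholds numbered 2 in edgeR, 3 with DESeq2, with total counts alone and with the stricter filter (each adding *IGFBP2*), and 2 to 4 when 1 clone was left out. The 4 without SF2 were *IGF2*, *IGF1R*, *IGF2R* and *IGFBP2*; without IMF3 *IGF2* was lost and *IGF1R* gained. *IGF2R* passed throughout. Genes of the other 5 lists past both thresholds numbered 12 to 16 against 13. Over all genes 1332 to 1643 passed when 1 clone was left out and 1996 with DESeq2, which included 1611 of the 1618. Total counts alone shifted the median over all genes (log2) to 0.12 from -0.03, and 1078 genes were higher and 539 lower, against 877 and 741.

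Among the 9 IGF genes, signs reversed only for binding proteins that passed no threshold. The log2 fold change of *IGFBP3* was 0.15 with limma-voom and from -0.57 to 0.19 when 1 clone was left out, that of *IGFBP5* was from -0.27 to 0.86 when 1 clone was left out, and that of *IGFBP7* was 1.71 with limma-voom, 0.11 with total counts alone and from -0.49 to 0.81 when 1 clone was left out. With the clone number as a block, *IGFBP3* was at 0.14 and *IGFBP7* at 0.95, the same 2 members passed, and 1489 genes passed, of which 1356 were shared. Deviations of same-numbered clones had a mean correlation of 0.0548 (from -0.00933 to 0.139 over 4 pairs). Over the 12 other pairs the mean was -0.0184 (from -0.105 to 0.109). So few pairs cannot show whether the numbers pair samples. No label says that they do, so the numbers were not taken to pair samples. In CPM the IMF share of *IGFBP6* among the 6 binding proteins was 28.2%, and that of *IGFBP5* was 18.5%, since CPM ignores length. The cause of the other changes was not tested.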
